A study of Mus musculus with 15 samples.

Results

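Ear RNA of 10-week-old mice was compared between 4 keratin 5-specific *Socs3* conditional knockout mice (*Socs3* cKO) and 3 wild type mice, all C57BL/6. Of the 21110 genes in the files, 13105 had an FPKM (fragments mapped to a gene, scaled by its transcript length and by the size of the library) of at least 1 in at least 3 of these 7 libraries, and these were tested. The whole series holds 15 libraries in 4 groups, the others being 4 wild type and 4 *Socs3* cKO mice of 2 weeks, which are used here only to set the 10-week differences beside those of the younger age. The labels name keratinocytes as the source and ear as the tissue, and the methods describe RNA extracted from ear. The deletion runs from the keratin 5 promoter, which is active in basal keratinocytes, and passes to the cells that arise from them. Cells of the ear outside that lineage keep the gene.

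SOCS3 is an inhibitor that a cell makes after a cytokine has switched on STAT3, and it binds the shared receptor chain gp130 and its kinases and stops the signal. In the epidermis gp130 cytokines and interleukin 22 act on keratinocytes, which answer with growth factors, chemokines and acute phase proteins and shift between proliferation, adhesion and cornification. The comparison asks which of these processes, and which others in the ear, differed between genotypes in the adult. Values are log2(FC), the difference of mean log2(FPKM + 0.1) between *Socs3* cKO and wild type, with its standard error (SE). A differentially expressed gene (DEG) had an adjusted p below 0.01 by limma and a |log2(FC)| of at least 1.

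Of the genes tested, 1638 (12.5%) were up-regulated and 319 (2.43%) were down-regulated, and the median log2(FC) of all genes was 0.31. Every *Socs3* cKO mouse lay above every wild type mouse in 4089 genes (31.2%) and below in 1459 (11.1%). Several measures of the libraries moved with genotype at 10 weeks. Transcripts of olfactory receptor genes, a large family with little expression outside the nose, were above 0 for 530, 332 and 770 of its 1069 genes in the wild type, for 38, 40, 45 and 30 in *Socs3* cKO, and for 15 to 36 in each library of 2 weeks. The differences also followed the length of the transcript. In genes whose longest transcript was at most 500 bases, 2.56% were up-regulated and 6.15% down-regulated, while above 6000 bases the shares were 23.4% and 0.365%. When the trend of each library with transcript length and GC content was removed, 756 genes (5.98%) were up-regulated and 523 (4.14%) down-regulated, with a median of -0.09 (below, "trend removed"). The part of these library measures in the results was not tested, and the labels number the libraries in a separate range for each group, so library batch and genotype cannot be told apart. Counts of the gene lists below are to be read against 12.5% and 2.43% of all genes as deposited, and where given with the trend removed against 5.98% and 4.14%.

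**Figure D1:**
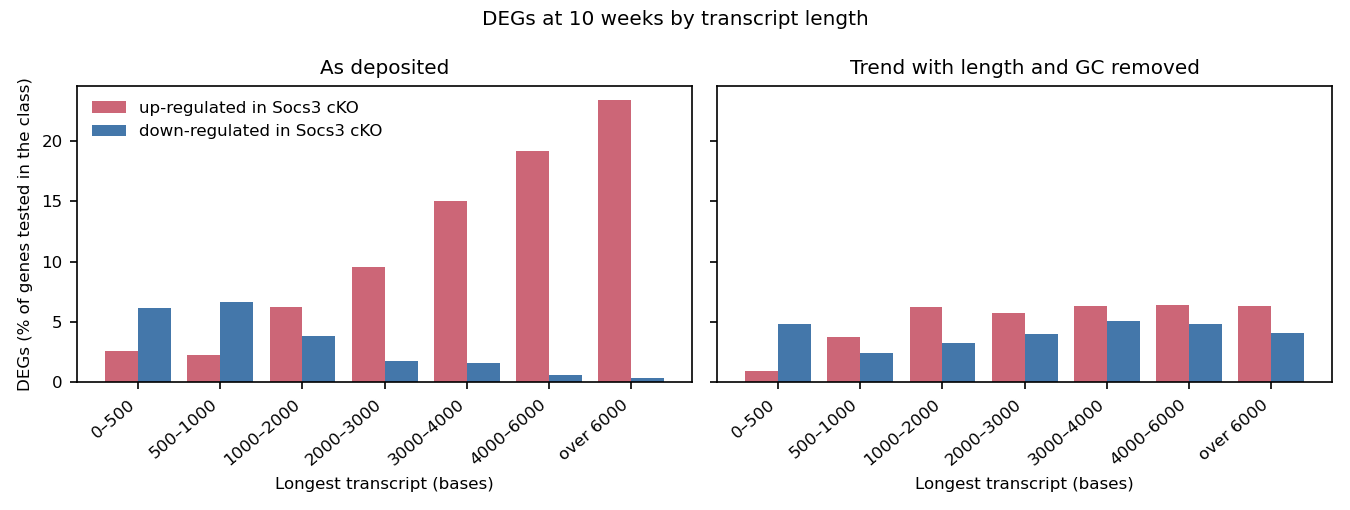
Share of genes tested that were DEGs at 10 weeks (y axis, %) by length of the longest transcript (x axis, bases), up-regulated (red) and down-regulated (blue) in *Socs3* cKO, as deposited (left) and with the trend of each library with length and GC content removed (right). As deposited, the up-regulated share runs from 2.56% to 23.4% from the shortest to the longest class, and with the trend removed it lies between 0.971% and 6.39%.

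Single mice set part of the calls. Wild type replicate 2 was the highest wild type mouse in 1272 of the 1638 up-regulated DEGs, and *Socs3* cKO replicate 4 was the lowest *Socs3* cKO mouse in 902 of them. These 2 libraries also stood apart from their groups in the length trend. The Spearman correlation of a library's deviation from the mean of the 7 with transcript length was -0.511, -0.047 and -0.442 in the wild type. In *Socs3* cKO it was 0.481, 0.507, 0.464 and -0.105. The part of this trend in the counts was not tested. Up-regulated DEGs numbered 2323 without wild type replicate 2 and 648 without wild type replicate 3. Of 127 DEGs named in the text, 89 remained DEGs in each test with 1 of the 7 libraries left out, and the others are marked where they are described. Of the 89, *Dub1* and *Veph1* could not be tested without any one wild type mouse, since too few mice then reached 1 FPKM. As a check of the label, the keratinocyte markers *Krt5*, *Krt14*, *Krt1*, *Krt10*, *Krt15* and *Trp63* summed to 6190 to 10360 FPKM in wild type mice and 8004 to 11830 FPKM in *Socs3* cKO, and 0 of the 6 was a DEG. Markers of fibroblasts, muscle, cartilage, fat, endothelium and blood were also present in every library. In such tissue RNA, fewer cells of a type and less RNA per cell cannot be told apart.

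The targeted gene, *Socs3*, was higher in the libraries labelled *Socs3* cKO. It ranged over 2.02 to 4.81 FPKM in wild type mice and 29.8 to 47.7 FPKM in *Socs3* cKO (log2(FC) 3.54, SE 0.29, adjusted p = 7.2e-05), with an exact permutation p of 0.0571, the smallest that 3 mice against 4 allow. FPKM over the whole gene does not separate the deleted part, so the gene does not check the labels, and "*Socs3* cKO" and "wild type" stand below for the libraries so labelled. The STAT pathway list holds receptors, JAK kinases, STAT factors, feedback inhibitors, *Socs3* among them, and known targets. Of its 54 genes tested, 24 (44.4%) were up-regulated and 0 down-regulated, with a median log2(FC) of 0.97. With the trend removed 12 (22.6%) were up-regulated, with a median of 0.43. With 1 library left out, 12 to 27 were up-regulated, the fewest without wild type replicate 3.

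Feedback inhibitors other than *Socs3* rose with it. *Sh2b3*, which encodes the adaptor LNK that restrains JAK2, was 0.879, 2.98 and 0.863 FPKM in the wild type and 10.7, 11.3, 9.64 and 5.66 FPKM in *Socs3* cKO (log2(FC) 2.67, SE 0.42, adjusted p = 0.0018). *Cish*, a STAT5-induced member of the SOCS family chosen after its values were seen, was 7.75, 7.74 and 3.7 FPKM in the wild type and 22.7, 22.6, 31.6 and 21.9 FPKM in *Socs3* cKO (log2(FC) 1.99, SE 0.28, adjusted p = 0.001). *Socs4*, a member of the family linked to EGF receptor turnover, was 1.18, 1.96 and 0.441 FPKM in the wild type and 5.07, 5.73, 7.05 and 4.24 FPKM in *Socs3* cKO (log2(FC) 2.30, SE 0.41, adjusted p = 0.0031). In each of the 3 genes the lowest *Socs3* cKO mouse lay above the highest wild type mouse. With *Socs3* itself counted, 8 of 17 feedback inhibitors were up-regulated, and 5 with the trend removed. *Sh2b3* was no longer a DEG without wild type replicate 3 (adjusted p = 0.012), nor *Socs4* without wild type replicate 1 (adjusted p = 0.011).

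Receptor chains gave 7 up-regulated of 17, 3 with the trend removed. *Il22ra1*, the interleukin 22 receptor chain that keratinocytes carry, was 0.394, 1.24 and 0.119 FPKM in the wild type and 4.29, 5.43, 6.38 and 2.45 FPKM in *Socs3* cKO (log2(FC) 3.09, SE 0.56, adjusted p = 0.0033). *Il6ra*, the ligand-binding chain of the interleukin 6 receptor, was 1.47, 6.85 and 0.646 FPKM in the wild type and 15.6, 19.9, 22.1 and 8.95 FPKM in *Socs3* cKO (log2(FC) 2.98, SE 0.64, adjusted p = 0.0068). *Il4ra*, the chain shared by the interleukin 4 and 13 receptors, was 4.73, 4.38 and 2.57 FPKM in the wild type and 13.1, 10.9, 19.3 and 17.9 FPKM in *Socs3* cKO (log2(FC) 1.96, SE 0.28, adjusted p = 0.0011). Wild type replicate 2 was the highest wild type mouse for *Il22ra1* and *Il6ra*, and the groups did not overlap in any of the 3. The log2(FC) ranged from 2.46 to 3.76 for *Il22ra1* and from 2.26 to 3.87 for *Il6ra* over the libraries left out. *Il22ra1* was not a DEG without wild type replicate 1 or 3, nor *Il6ra* without either of them or without *Socs3* cKO replicate 1, 2 or 3, with adjusted p of up to 0.014 and 0.029.

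The kinases *Jak1* and *Jak2* had a log2(FC) of 1.09 and 1.22, and *Stat3*, the factor that SOCS3 restrains, 1.04 (adjusted p = 0.0046, 0.0029 and 0.0072). *Stat3* was the one STAT factor called of 6 tested. After removal of the trend these values were 0.34, 0.44 and 0.32, and none of the 3 genes was a DEG (adjusted p = 0.1, 0.039 and 0.12). Nor were they DEGs after quantile normalization or without wild type replicate 1 or 3, and *Jak1* and *Stat3* were not DEGs without *Socs3* cKO replicate 1, 2 or 3 (adjusted p up to 0.014, 0.015 and 0.035 over the libraries left out).

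Targets of STAT3 showed larger differences, 6 of 10 being up-regulated, 4 with the trend removed. *Cebpd*, a C/EBP factor of the acute phase response, was 8.97, 5.99 and 9.28 FPKM in the wild type and 63.9, 49.5, 52.6 and 67.3 FPKM in *Socs3* cKO (log2(FC) 2.85, SE 0.20, adjusted p = 3.4e-05). *Pim1*, a survival kinase, was 11.4, 14.3 and 3.52 FPKM in the wild type and 52.5, 64.3, 59.5 and 41.9 FPKM in *Socs3* cKO (log2(FC) 2.68, SE 0.41, adjusted p = 0.0016). *Bcl3*, an atypical IκB protein that modulates NF-κB dimers, was 1.49, 2.08 and 1.81 FPKM in the wild type and 11.6, 11.6, 15.8 and 7.08 FPKM in *Socs3* cKO (log2(FC) 2.58, SE 0.28, adjusted p = 0.00031). All *Socs3* cKO mice lay well above the wild type in these genes, the narrowest gap being that of *Pim1* between 14.3 and 41.9 FPKM. *Myc*, chosen after its values were seen, was 10.3 to 15 FPKM in the wild type and 60.1, 65.3, 60.6 and 31.7 FPKM in *Socs3* cKO, where replicate 4 was the lowest (log2(FC) 2.00, SE 0.27, adjusted p = 0.00092). *Cebpd*, *Bcl3*, *Pim1* and *Myc* remained DEGs with every library left out in turn. *Cebpd* has no value with the trend removed, because it has no GC value in the annotation used.

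The EGF receptor system had a larger share of up-regulated genes than the STAT pathway list. Its ligands are shed from the keratinocyte surface, bind receptors on the same and nearby cells and start MAP kinase signals, which then induce the phosphatases and adaptors that end them. Of 38 genes tested, 19 (50%) were up-regulated and 0 down-regulated, with a median log2(FC) of 1.33. With the trend removed 15 (39.5%) were up-regulated and the median was 0.69. Leaving out 1 library gave 11 to 23 up-regulated members, the fewest without wild type replicate 3. The rise was not shared by all roles. Of 8 genes listed for shedding and docking 1 was up-regulated, as deposited and with the trend removed, with medians of 0.52 and 0.01.

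Among the ligands, 4 of 6 were up-regulated. *Epgn*, which encodes epigen, was 0.283, 0.236 and 0.164 FPKM in the wild type and 3.84, 5.4, 4.38 and 4.09 FPKM in *Socs3* cKO (log2(FC) 3.79, SE 0.26, adjusted p = 2.8e-05). *Hbegf*, encoding the heparin-binding ligand released in wounds, was 2.46, 2.05 and 1.95 FPKM in the wild type and 27.7, 28.9, 50.1 and 19.9 FPKM in *Socs3* cKO (log2(FC) 3.74, SE 0.28, adjusted p = 5.2e-05). *Ereg*, encoding epiregulin, was 9.45, 2.35 and 0.619 FPKM in the wild type and 24.1, 37.1, 38.2 and 20.4 FPKM in *Socs3* cKO (log2(FC) 3.50, SE 0.69, adjusted p = 0.0047). The groups were far apart in *Epgn* and *Hbegf*, whereas the wild type spread of *Ereg* was wide, with replicate 1 the highest. *Epgn* was below 1 FPKM in every wild type mouse, so it passed the filter through the *Socs3* cKO mice alone. *Ereg* was not a DEG with the trend removed (log2(FC) 2.71, adjusted p = 0.011) or without wild type replicate 2 or 3 or *Socs3* cKO replicate 2 or 3 (log2(FC) 2.58 to 4.45 over all libraries left out, adjusted p up to 0.012).

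Receptors rose as well. *Egfr* was 5.79, 9.31 and 4.95 FPKM in the wild type and 24.9, 24.2, 20.1 and 16.8 FPKM in *Socs3* cKO (log2(FC) 1.70, SE 0.25, adjusted p = 0.0012), and its kinase-impaired partner *Erbb3* was 0.477, 3.17 and 0.692 FPKM in the wild type and 10.5, 13.7, 16 and 4.2 FPKM in *Socs3* cKO (log2(FC) 3.13, SE 0.61, adjusted p = 0.0045). No *Socs3* cKO mouse overlapped the wild type in either. With the trend removed *Egfr* was below the fold threshold (log2(FC) 0.77) and *Erbb3* was above it (2.38). *Erbb3* lost its call without wild type replicate 1 or 3 or *Socs3* cKO replicate 1, 2 or 3 (adjusted p up to 0.028).

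Of the feedback inhibitors of the EGF receptor and of MAP kinases, 12 of 21 were up-regulated, 10 with the trend removed. *Dusp5*, a nuclear phosphatase of ERK, was 0.893, 1.04 and 0.452 FPKM in the wild type and 10, 9.57, 9.2 and 9.82 FPKM in *Socs3* cKO (log2(FC) 3.51, SE 0.27, adjusted p = 5.2e-05). *Dusp8*, a phosphatase of JNK and p38, was 0.216, 0.315 and 0.3 FPKM in the wild type and 4.13, 4.72, 4.94 and 2.77 FPKM in *Socs3* cKO (log2(FC) 3.47, SE 0.29, adjusted p = 7.9e-05). *Errfi1*, whose product MIG6 binds and blocks the EGF receptor kinase, was 12.9, 14.3 and 6.18 FPKM in the wild type and 149.9, 111, 94.9 and 102 FPKM in *Socs3* cKO (log2(FC) 3.41, SE 0.29, adjusted p = 9.1e-05). The 4 *Socs3* cKO mice were nearly level in *Dusp5* and at least several times above the wild type in all 3 genes. These 3 were DEGs under every alternative tried. *Dusp8* was below 1 FPKM in every wild type mouse, so it passed the filter through the *Socs3* cKO mice alone.

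**Figure D2:**
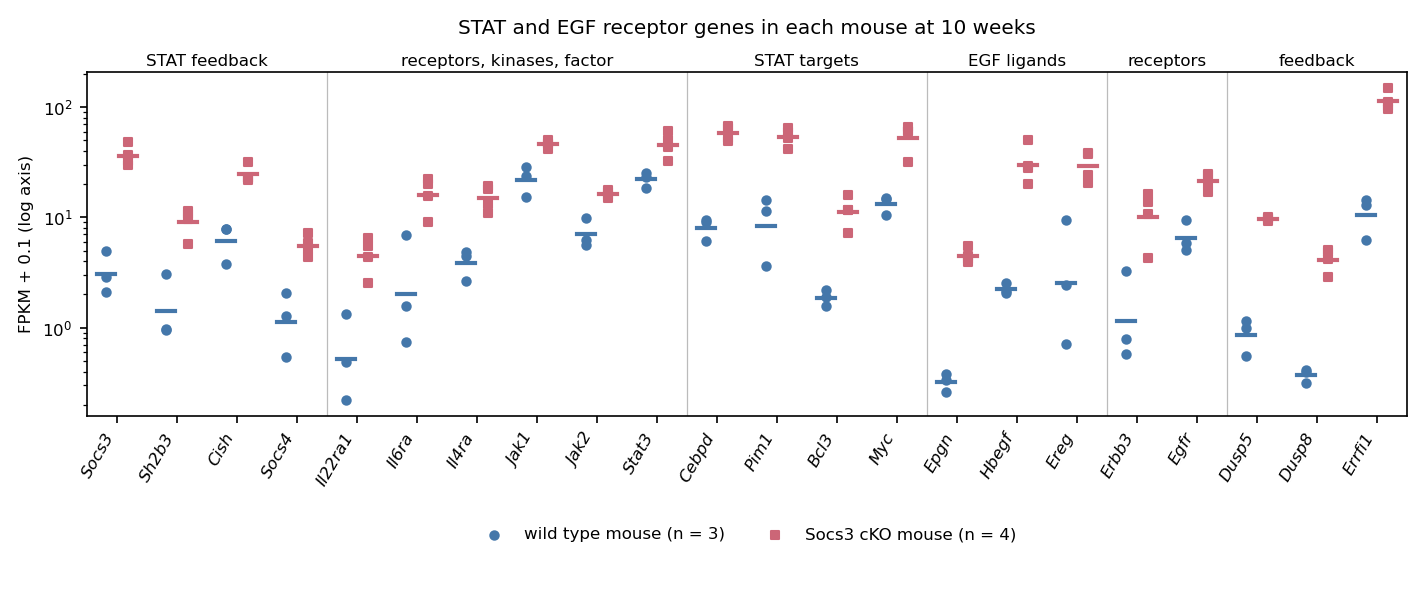
FPKM + 0.1 (y axis, log scale) of genes of the STAT pathway and the EGF receptor system (x axis, grouped by role) in the 3 wild type mice (blue circles) and the 4 *Socs3* cKO mice (red squares) at 10 weeks, with bars at the mean of the log values. In each gene shown the lowest *Socs3* cKO mouse lies above the highest wild type mouse, *Hbegf* for instance at 19.9 against 2.46 FPKM. This holds for 31.2% of all genes tested, and the genes shown were picked as DEGs or after their values were seen, so it is no further support. *Epgn* and *Dusp8* were below 1 FPKM in every wild type mouse and passed the filter through the *Socs3* cKO mice alone.

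The 10 largest rises among genes with a mean of at least 5 FPKM in the higher group, the AP-1 subunits, *Il6*, *Cxcl1* and *Cxcl2* left aside, lay with the exception of *Clec3a* in genes that cells switch on soon after a stimulus. The 3 NR4A orphan nuclear receptors, transcription factors that are regulated by their amount rather than by a ligand, all rose. *Nr4a1* was 4.54, 3.74 and 2.49 FPKM in the wild type and 332, 272, 314 and 242 FPKM in *Socs3* cKO (log2(FC) 6.33, SE 0.22, adjusted p = 3.9e-07). *Nr4a2* was 1.03, 1.08 and 0.632 FPKM in the wild type and 36, 35.8, 34.1 and 11.4 FPKM in *Socs3* cKO (log2(FC) 4.75, SE 0.40, adjusted p = 8.6e-05), the lowest *Socs3* cKO value being that of replicate 4. *Nr4a3* was listed at 0 in all 3 wild type mice and was 12.5, 14.4, 12.1 and 4.66 FPKM in *Socs3* cKO, so no fold is given (adjusted p = 1.1e-05). It passed the filter through the *Socs3* cKO mice alone.

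Mediators of inflammation and its restraint made up much of the rest. *Ptgs2*, the inducible enzyme of prostaglandin synthesis, was 0.83, 0.395 and 0.187 FPKM in the wild type and 28.7, 29.3, 41.5 and 42.1 FPKM in *Socs3* cKO (log2(FC) 6.10, SE 0.36, adjusted p = 1.2e-05). *Has1*, a hyaluronan synthase, was 0.161, 0.45 and 0.423 FPKM in the wild type and 17.6, 18.1, 26.4 and 21.9 FPKM in *Socs3* cKO (log2(FC) 5.63, SE 0.30, adjusted p = 6.2e-06). *Tnfaip3*, whose product A20 is a ubiquitin-editing brake on NF-κB, was 1.63, 3.39 and 1.43 FPKM in the wild type and 80, 86, 116 and 63.1 FPKM in *Socs3* cKO (log2(FC) 5.33, SE 0.30, adjusted p = 9.8e-06). The wild type mice were below 1 FPKM in *Ptgs2* and *Has1*, and no *Socs3* cKO mouse was below 17.6 FPKM in either. Both genes thus passed the filter through the *Socs3* cKO mice alone. *Ccl20*, the chemokine that draws CCR6-bearing cells, was 6, 1.56 and 0.843 FPKM in the wild type and 44.6, 104, 87.2 and 78.2 FPKM in *Socs3* cKO (log2(FC) 5.15, SE 0.55, adjusted p = 0.00029). *Cxcl10*, an interferon-induced chemokine, was 1.27, 0.577 and 0.572 FPKM in the wild type and 17.9, 14, 58.4 and 31.2 FPKM in *Socs3* cKO (log2(FC) 4.93, SE 0.47, adjusted p = 0.00017), and *Il1b*, the cytokine interleukin 1β, was 1.13, 0.441 and 0.109 FPKM in the wild type and 12.1, 12.3, 21.2 and 16.6 FPKM in *Socs3* cKO (log2(FC) 4.88, SE 0.51, adjusted p = 0.00026). In *Cxcl10* replicate 3 was the highest *Socs3* cKO mouse. These 6 genes were DEGs under every alternative, with the trend removed at log2(FC) 5.34, 5.58, 4.64, 4.93, 4.94 and 4.79.

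Proteins that destroy short-lived messages rose alongside. *Zfp36*, whose product tristetraprolin binds AU-rich elements of cytokine messages and recruits deadenylases, was 15.4, 15.9 and 8.54 FPKM in the wild type and 264, 214, 277 and 130.3 FPKM in *Socs3* cKO (log2(FC) 4.04, SE 0.30, adjusted p = 4.9e-05). *Btg2*, an antiproliferative adaptor of the CCR4-NOT deadenylase, was 13.5, 14.9 and 9.79 FPKM in the wild type and 123, 102, 108 and 94 FPKM in *Socs3* cKO (log2(FC) 3.08, SE 0.19, adjusted p = 1.3e-05). Both held with each library left out, and the wild type mice lay between 8.54 and 15.9 FPKM in both. Of 32 mRNA decay genes 10 (31.2%) were up-regulated and 0 down-regulated, with a median of 0.59. After removal of the trend 4 (12.5%) were up-regulated, 1 was down-regulated, and the median was 0.01, close to the -0.09 of all genes. The count as deposited was 5 to 12 with 1 library left out, fewest without wild type replicate 1 or 3.

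Upstream sequences were read for these inducible genes from RefSeq (GRCm38.p6), 250 bases up to the start site. In a promoter table of 27025 genes, 1.77% of these windows held the cAMP response element TGACGTCA, 8.13% the STAT motif TTCNNNGAA and 5.61% the NF-κB motif GGGNNTTCC, searched on both strands. Matches of different motifs overlapped in 34 genes. Among the 9222 tested genes with a window the shares were 2.93%, 7.07% and 7.31%, and among the 1145 up-regulated DEGs with one 3.23%, 9.08% and 7.42%. In the same order, the motifs were found in 4 (12.5%), 2 (6.25%) and 4 (12.5%) of 32 windows of the EGF receptor list. In the 9 windows of the 10 largest rises they were found in 1 (11.1%), 0 and 3 (33.3%). In the 43 windows of the STAT pathway list they were found in 2 (4.65%), 3 (6.98%) and 5 (11.6%). These shares rest on few genes. A match is a description of these letters and does not show that a factor binds there. The windows below, chosen after their matches were seen, carry the motif in capitals, and they show the letters near the start of the targeted gene, of genes of the EGF receptor list, of genes among the 10 largest rises and of *Irf1*, an interferon gene described below.
Socs3 (chr11:117969367-117969616, minus strand): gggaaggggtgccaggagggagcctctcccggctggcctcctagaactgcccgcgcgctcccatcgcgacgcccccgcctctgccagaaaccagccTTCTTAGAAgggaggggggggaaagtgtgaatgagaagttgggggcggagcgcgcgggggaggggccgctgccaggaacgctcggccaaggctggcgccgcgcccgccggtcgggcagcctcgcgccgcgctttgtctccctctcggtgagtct
Irf1 (chr11:53769764-53770013, plus strand): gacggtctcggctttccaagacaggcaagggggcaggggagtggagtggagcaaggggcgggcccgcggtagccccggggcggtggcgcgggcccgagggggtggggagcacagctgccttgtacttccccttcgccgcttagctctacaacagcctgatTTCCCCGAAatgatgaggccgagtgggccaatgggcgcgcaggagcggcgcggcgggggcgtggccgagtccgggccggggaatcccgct
Has1 (chr17:17855189-17855438, minus strand): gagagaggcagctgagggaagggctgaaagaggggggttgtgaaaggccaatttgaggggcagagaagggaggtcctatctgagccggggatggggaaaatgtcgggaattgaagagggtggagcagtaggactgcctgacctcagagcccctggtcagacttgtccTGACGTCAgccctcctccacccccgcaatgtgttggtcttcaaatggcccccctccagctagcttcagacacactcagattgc
Errfi1 (chr4:150854820-150855069, plus strand): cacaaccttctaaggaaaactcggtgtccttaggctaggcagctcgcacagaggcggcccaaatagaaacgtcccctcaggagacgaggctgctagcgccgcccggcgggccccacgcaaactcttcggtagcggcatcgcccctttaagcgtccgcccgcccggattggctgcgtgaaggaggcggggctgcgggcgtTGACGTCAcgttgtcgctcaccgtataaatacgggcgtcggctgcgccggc
Dusp8 (chr7:142095285-142095534, minus strand): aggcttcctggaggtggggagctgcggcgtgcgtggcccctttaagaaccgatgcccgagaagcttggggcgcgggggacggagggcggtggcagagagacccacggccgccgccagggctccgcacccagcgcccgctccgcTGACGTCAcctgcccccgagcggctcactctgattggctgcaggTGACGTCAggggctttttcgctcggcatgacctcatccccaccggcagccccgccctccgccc
Tnfaip3 (chr10:19015411-19015660, minus strand): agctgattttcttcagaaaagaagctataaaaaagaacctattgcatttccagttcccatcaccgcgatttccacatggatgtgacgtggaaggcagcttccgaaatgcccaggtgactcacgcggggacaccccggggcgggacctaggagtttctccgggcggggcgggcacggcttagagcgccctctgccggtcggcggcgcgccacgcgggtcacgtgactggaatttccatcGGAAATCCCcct
Ccl20 (chr1:83116516-83116765, plus strand): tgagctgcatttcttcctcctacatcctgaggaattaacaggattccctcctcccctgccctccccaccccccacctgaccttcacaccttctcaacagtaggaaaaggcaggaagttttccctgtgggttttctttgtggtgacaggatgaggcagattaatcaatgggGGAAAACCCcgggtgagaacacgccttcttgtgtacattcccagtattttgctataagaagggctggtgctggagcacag
Cxcl10 (chr5:92348890-92349139, minus strand): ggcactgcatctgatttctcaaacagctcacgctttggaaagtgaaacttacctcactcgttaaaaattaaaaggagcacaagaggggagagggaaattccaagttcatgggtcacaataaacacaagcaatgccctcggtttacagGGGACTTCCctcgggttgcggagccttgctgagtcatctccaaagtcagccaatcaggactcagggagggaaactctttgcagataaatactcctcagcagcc
In *Socs3* and *Irf1* the capitals mark the STAT motif, in *Has1*, *Errfi1* and *Dusp8* the cAMP response element, which *Dusp8* holds at 2 places, and in *Tnfaip3*, *Ccl20* and *Cxcl10* the NF-κB motif.

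Genes of the circadian clock also differed. The clock is a loop in which CLOCK and BMAL1 drive their own repressors PER and CRY, with further factors tuning its output. Of 19 clock genes 10 (52.6%) were up-regulated and 0 down-regulated, with a median of 1.01. With the trend removed 5 (26.3%) were up-regulated and 1 down-regulated, with a median of 0.16. *Rora*, an activator of the loop, was 1.35, 1.27 and 0.766 FPKM in the wild type and 24.8, 27.1, 30.7 and 9.4 FPKM in *Socs3* cKO (log2(FC) 4.14, SE 0.39, adjusted p = 0.00018). *Nfil3*, a repressor of clock output, was 2.38, 1.66 and 2.03 FPKM in the wild type and 20.9, 20.2, 26.7 and 16.8 FPKM in *Socs3* cKO (log2(FC) 3.32, SE 0.21, adjusted p = 1.9e-05). *Bhlhe40*, an E-box repressor that stimuli also induce, was 17.3, 21.9 and 15 FPKM in the wild type and 117, 101, 129 and 95.8 FPKM in *Socs3* cKO (log2(FC) 2.62, SE 0.19, adjusted p = 3.4e-05). *Per1*, chosen after its values were seen, was 10.1, 12 and 9.46 FPKM in the wild type and 61.9, 53.9, 54.2 and 42.4 FPKM in *Socs3* cKO (log2(FC) 2.32, SE 0.18, adjusted p = 5.2e-05). In all 4 genes the groups lay far apart and the call held with each library left out. The count over the list was 5 to 10 with 1 library left out, fewest without wild type replicate 1 or 3 or *Socs3* cKO replicate 1. The time of day at which the mice were sampled is not given in the sources used here.

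The complement system, a cascade of plasma and tissue proteases that tags surfaces with C3, was higher in most of its parts. Of 25 genes tested, 13 (52%) were up-regulated and 0 down-regulated, with a median of 1.16. After removal of the trend 8 (33.3%) were up-regulated at a median of 0.78. With 1 library left out the count was 9 to 13, lowest without wild type replicate 3. The proteases that start the classical pathway rose, *C1s* being 16.9, 20.1 and 13.7 FPKM in the wild type and 57.2, 45.2, 53.1 and 78.5 FPKM in *Socs3* cKO (log2(FC) 1.77, SE 0.22, adjusted p = 0.0006). Its partner *C1rb* was 2.91, 5.05 and 3.13 FPKM in the wild type and 20.1, 16, 19.7 and 28.2 FPKM in *Socs3* cKO (log2(FC) 2.49, SE 0.25, adjusted p = 0.00025), though it has a close paralog, *C1ra*, between which reads may be split. The central component *C3* was 12.5, 18.5 and 12.6 FPKM in the wild type and 83.4, 76.5, 48.2 and 37.7 FPKM in *Socs3* cKO (log2(FC) 2.02, SE 0.29, adjusted p = 0.0012). Factor B, *Cfb*, which forms the alternative convertase with C3, was 11.9, 15.6 and 11.4 FPKM in the wild type and 43.3, 39.3, 47.3 and 58.4 FPKM in *Socs3* cKO (log2(FC) 1.85, SE 0.19, adjusted p = 0.00026). The 3 wild type mice were within a narrow band in each of these genes, and every *Socs3* cKO mouse lay above it.

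Regulators of complement gave 4 up-regulated of 7, 2 with the trend removed and 2 without wild type replicate 3. *Serping1*, the C1 inhibitor, was 115, 118 and 112 FPKM in the wild type and 327, 282, 246 and 436 FPKM in *Socs3* cKO (log2(FC) 1.45, SE 0.21, adjusted p = 0.0014). *Itgam*, the α chain of complement receptor 3 on myeloid cells, had a log2(FC) of 1.64 (adjusted p = 0.0019), and 0.94 with the trend removed, when it was not a DEG. *Cfd*, the adipocyte protease factor D, was 27.3, 19.4 and 19.6 FPKM in the wild type and 146, 78.9, 37 and 77.8 FPKM in *Socs3* cKO (log2(FC) 1.79, SE 0.38, adjusted p = 0.0065), and it lost its call without wild type replicate 1, 2 or 3 or *Socs3* cKO replicate 2 or 4 (adjusted p up to 0.034). Of the terminal pathway, 1 of 7 genes in the files was expressed enough to be tested, and it was not a DEG.

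Acute phase proteins gave 5 up-regulated of 14 tested (35.7%) and 0 down-regulated, with a median of 1.13, and 4 (28.6%) with the trend removed, with a median of 1.04. With 1 library left out the count was 3 to 6, fewest without wild type replicate 1 or 3. *Serpina3n*, a protease inhibitor induced by STAT3, was 8.9, 11.6 and 12.3 FPKM in the wild type and 45.8, 31.1, 55 and 43 FPKM in *Socs3* cKO (log2(FC) 1.98, SE 0.22, adjusted p = 0.00034). Ceruloplasmin, *Cp*, the copper-carrying ferroxidase, was 3.78, 6.63 and 2.67 FPKM in the wild type and 19.5, 13.1, 12.1 and 19.3 FPKM in *Socs3* cKO (log2(FC) 1.92, SE 0.31, adjusted p = 0.0021), and *Steap4*, a metalloreductase, was 6.24, 11.2 and 5.52 FPKM in the wild type and 29.1, 28.6, 20.8 and 32.7 FPKM in *Socs3* cKO (log2(FC) 1.90, SE 0.26, adjusted p = 0.001). The groups did not overlap in any of the 3. *Cp* was not a DEG without wild type replicate 1 or 3 (adjusted p up to 0.011).

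Markers of several immune cells were higher, most clearly those of dendritic and Langerhans cells, the antigen-presenting cells of skin. Their 14 markers summed to 892 to 1077 FPKM in wild type mice and 1752 to 2690 FPKM in *Socs3* cKO. Of 12 tested 8 were up-regulated, both as deposited and with the trend removed (66.7%), with medians of 1.39 and 1.22, and 4 to 7 with 1 library left out, fewest without wild type replicate 1. *Cd83*, a surface protein of maturing dendritic cells, was 2.81, 1.68 and 1.96 FPKM in the wild type and 18.9, 19, 16.4 and 29.7 FPKM in *Socs3* cKO (log2(FC) 3.22, SE 0.26, adjusted p = 6.4e-05). *Ccr7*, the receptor that guides such cells to lymph nodes, was 0.514, 0.16 and 0.381 FPKM in the wild type and 2.05, 2.18, 3.41 and 2.42 FPKM in *Socs3* cKO (log2(FC) 2.59, SE 0.35, adjusted p = 0.00099), and *Flt3*, the receptor for their growth factor, was 0.58, 0.369 and 0.391 FPKM in the wild type and 2.56, 2.72, 2.32 and 3.06 FPKM in *Socs3* cKO (log2(FC) 2.35, SE 0.26, adjusted p = 0.00037). These 3 genes held with each library left out. *Ccr7* and *Flt3* were below 1 FPKM in every wild type mouse, so they passed the filter through the *Socs3* cKO mice alone.

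Macrophage markers summed to 591 to 1056 FPKM in wild type mice and 1052 to 1768 FPKM in *Socs3* cKO, so the highest wild type and the lowest *Socs3* cKO mouse overlapped, and 6 of 14 were up-regulated (4 with the trend removed, 2 without wild type replicate 3). *Cd14*, the co-receptor for bacterial lipopolysaccharide, was 6.9, 3.94 and 5.03 FPKM in the wild type and 22.3, 21.4, 26 and 38 FPKM in *Socs3* cKO (log2(FC) 2.32, SE 0.26, adjusted p = 0.00034). *Mertk*, a receptor for apoptotic cells, was 0.851, 2.09 and 0.935 FPKM in the wild type and 8.14, 7, 5.02 and 3.36 FPKM in *Socs3* cKO (log2(FC) 2.13, SE 0.38, adjusted p = 0.0031) and was not a DEG without wild type replicate 1 or 3 (adjusted p up to 0.019). Mast cell markers summed to 490.3 to 589 FPKM against 432 to 841, overlapping. Their median log2(FC) was 0.47, against 0.31 for all genes, and 4 of 10 tested lay below 0. Up-regulated were 2 of 10, as deposited and with the trend removed. These were *Ms4a2*, the β chain of the IgE receptor, at 0.828, 1.32 and 0.305 FPKM in the wild type and 5.27, 3.6, 6.36 and 8.38 FPKM in *Socs3* cKO (log2(FC) 2.83, SE 0.43, adjusted p = 0.0016), and *Hdc*, the enzyme that makes histamine, at 3.13, 4.72 and 3.22 FPKM in the wild type and 11.8, 15.7, 16.1 and 13.6 FPKM in *Socs3* cKO (log2(FC) 1.94, SE 0.21, adjusted p = 0.00034). The sum of T cell markers was 46.1 to 55.4 FPKM in wild type mice and 60.3 to 82.2 FPKM in *Socs3* cKO. Of 11 tested, 2 were up-regulated and 0 with the trend removed. Their median log2(FC) was 0.27, against 0.31 for all genes (0.18 against -0.09 with the trend removed).

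The summed neutrophil markers were high in a single mouse. Their sum was 29.2 to 77.8 FPKM in wild type mice and 26.6, 39, 1285 and 46.6 FPKM in *Socs3* cKO. Of 7 tested 1 was a DEG, *Itgam*, described with the complement receptors (0 with the trend removed). The calprotectin chains *S100a8* and *S100a9*, chosen after their values were seen, were 7.42, 13.4, 838 and 16.5 and 5.12, 13.8, 425 and 18.6 FPKM in the 4 *Socs3* cKO mice and at most 31.6 and 32.6 FPKM in the wild type. Neither was a DEG by limma (adjusted p = 0.45 and 0.67), and without *Socs3* cKO replicate 3 their log2(FC) was -0.15 and -0.60.

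Of 31 interferon-induced genes 3 (9.68%) were up-regulated, and 2 (6.45%) with the trend removed, both near the shares of all genes. Most members were nonetheless higher in mean, 27 of 31, with a median of 0.78 (0.34 with the trend removed). The interferon regulatory factor *Irf1* was 6.88, 8.39 and 8.39 FPKM in the wild type and 65.3, 61.9, 95.6 and 70.2 FPKM in *Socs3* cKO (log2(FC) 3.18, SE 0.19, adjusted p = 1.2e-05), and *Ifi205*, of the interferon-inducible p200 family, was 7.03, 3.58 and 2.91 FPKM in the wild type and 22.2, 17.2, 22.3 and 43.4 FPKM in *Socs3* cKO (log2(FC) 2.53, SE 0.36, adjusted p = 0.0012). Both lay wholly above the wild type and were DEGs under every alternative. In the antigen presentation list of MHC class I chains and loading factors 7 of 28 were up-regulated (4 with the trend removed, 2 without wild type replicate 1 or 3), and 5 of these, *H2-K1*, *H2-Q2*, *H2-Q6*, *H2-Q8* and *H2-Q9*, are paralogs between which reads may be split. They are named because of their number and were chosen after their values were seen.

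**Figure D3:**
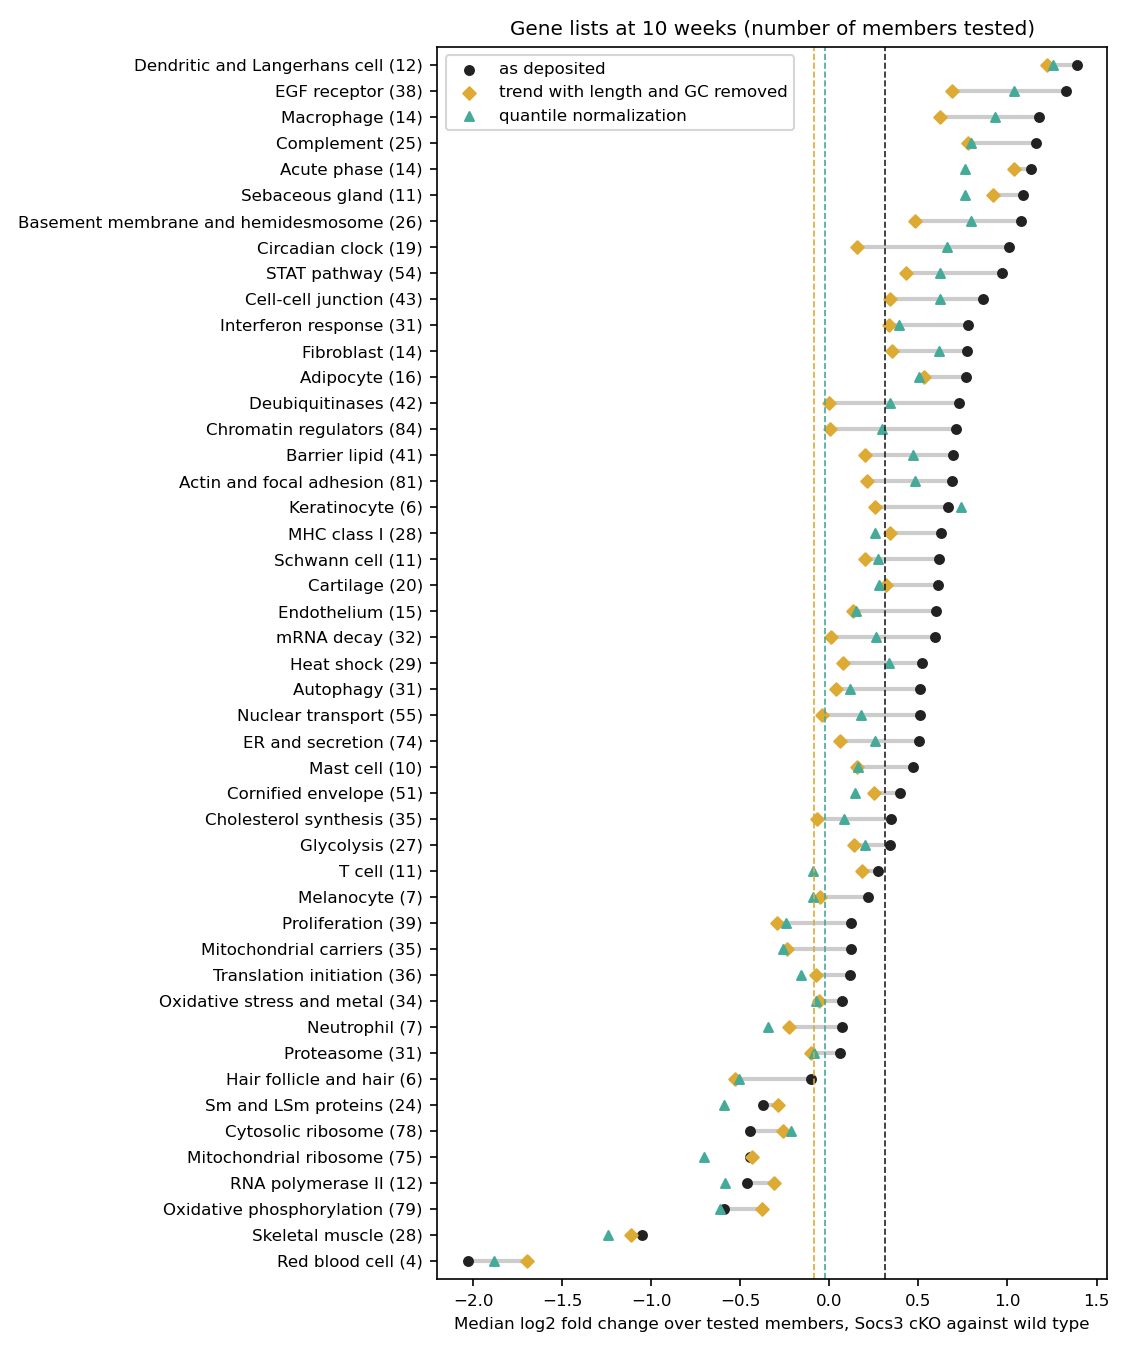
Median log2(FC) over the tested members of each gene list at 10 weeks (x axis), as deposited (black circles), after removal of the trend with length and GC content (yellow diamonds) and after quantile normalization (green triangles), lists ordered by the first, with the number of members tested in parentheses. Dashed lines give the same median over all genes, 0.31, -0.09 and -0.02, and the dendritic cell list is highest in all 3 while the red blood cell and skeletal muscle lists are lowest.

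Among adhesion genes of the epidermis the desmosomal cadherins had the largest median, the transmembrane proteins that join keratinocytes at desmosomes. Of 8 tested 6 were up-regulated (5 with the trend removed), with a median of 2.79 (2.06 with the trend removed). *Dsg1b* was 2.01, 9.23 and 1.87 FPKM in the wild type and 47.5, 64.2, 81.7 and 39.6 FPKM in *Socs3* cKO (log2(FC) 4.05, SE 0.50, adjusted p = 0.0006). *Dsg1c* was 0.94, 3.64 and 0.834 FPKM in the wild type and 20.8, 27.3, 35.6 and 19.5 FPKM in *Socs3* cKO (log2(FC) 4.03, SE 0.45, adjusted p = 0.00037), and *Dsg3*, the desmoglein of the basal layers, was 1.48, 4.29 and 1.47 FPKM in the wild type and 38.2, 36, 41.3 and 19.8 FPKM in *Socs3* cKO (log2(FC) 3.88, SE 0.39, adjusted p = 0.00023). Wild type replicate 2 was the highest wild type mouse in each and still lay below all *Socs3* cKO mice. *Dsg1b* and *Dsg1c* are close paralogs whose reads may be split. Of the 9 plaque proteins tested that link these cadherins to keratin, 0 were DEGs, and their log2(FC) lay between 0.32 and 0.88.

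Of the adherens junction 6 of 11 genes were up-regulated as deposited and 1 with the trend removed. This was P-cadherin, *Cdh3*, at 3.42, 5.25 and 3.88 FPKM in the wild type and 15.7, 15.4, 15.9 and 8.54 FPKM in *Socs3* cKO (log2(FC) 1.69, SE 0.26, adjusted p = 0.0017). E-cadherin, *Cdh1*, was 9.93, 25.6 and 6.79 FPKM in the wild type and 56.7, 74.6, 82.6 and 24.6 FPKM in *Socs3* cKO (log2(FC) 2.16, SE 0.50, adjusted p = 0.0089), and its lowest *Socs3* cKO mouse, replicate 4, overlapped with wild type replicate 2. *Cdh1* was not a DEG with the trend removed (adjusted p = 0.013), nor without wild type replicate 1 or 3 or *Socs3* cKO replicate 1, 2 or 3 (adjusted p up to 0.048), and *Cdh3* not without wild type replicate 3 (adjusted p = 0.011). Over all 43 junction genes 14 (32.6%) were up-regulated, 7 (16.3%) with the trend removed, when the median was 0.34, and 5 to 19 with 1 library left out, fewest without wild type replicate 3. Tight junction genes gave 2 up-regulated of 15. One of them was the scaffold *Tjp1* (log2(FC) 1.20), at 0.35 with the trend removed, when it was not a DEG, and not called either without wild type replicate 1 or 3 or *Socs3* cKO replicate 1, 2 or 3 (adjusted p up to 0.018).

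Basement membrane and hemidesmosome genes, which anchor the basal layer to the dermis, gave 13 up-regulated of 26 (50%) and 0 down-regulated, with a median of 1.08. With the trend removed 5 (19.2%) were up-regulated at a median of 0.48. *Itga6*, the α6 integrin of hemidesmosomes, was 3.61, 12.9 and 1.83 FPKM in the wild type and 50.5, 59.2, 59 and 24.9 FPKM in *Socs3* cKO (log2(FC) 3.34, SE 0.56, adjusted p = 0.0024). *Npnt*, the integrin ligand nephronectin, was 0.768, 2.48 and 0.919 FPKM in the wild type and 11.3, 9.72, 12.2 and 10.6 FPKM in *Socs3* cKO (log2(FC) 3.06, SE 0.35, adjusted p = 0.0004), and nidogen, *Nid1*, was 9.53, 10.3 and 8.01 FPKM in the wild type and 39.8, 28.8, 32.6 and 28.5 FPKM in *Socs3* cKO (log2(FC) 1.79, SE 0.18, adjusted p = 0.00023). *Itga6* was not a DEG without wild type replicate 1 or 3 (log2(FC) 2.72 to 4.10 over the libraries left out, adjusted p up to 0.012), while *Npnt* and *Nid1* held throughout. Of 9 laminin chains 7 were up-regulated as deposited and 1 with the trend removed, namely *Lama2* (log2(FC) 2.13, SE 0.26, adjusted p = 0.00054, and 1.23 with the trend removed). The cytolinker *Dst*, at 2.3, 4.28 and 3.04 FPKM in the wild type and 15.6, 14.7, 13.6 and 9.32 FPKM in *Socs3* cKO, was a DEG both ways (log2(FC) 2.04, SE 0.26, adjusted p = 0.00071, and 1.16 with the trend removed). Without wild type replicate 3, 4 genes of the whole list were up-regulated.

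The cornified envelope is the protein shell of dead keratinocytes, built from loricrin, late cornified envelope (LCE) and small proline-rich proteins. Loricrin, *Lor*, its main component, was 1741, 960.5 and 961 FPKM in the wild type and 147, 272, 224 and 146 FPKM in *Socs3* cKO (log2(FC) -2.62, SE 0.31, adjusted p = 0.00045). *Lce1m* was 1202, 629.8 and 784 FPKM in the wild type and 312, 308, 179 and 268 FPKM in *Socs3* cKO (log2(FC) -1.69, SE 0.29, adjusted p = 0.0024). Every *Socs3* cKO mouse lay below the wild type in both, and *Lce1m* alone of the pair lost its call without wild type replicate 3 (adjusted p = 0.012). Of the 16 LCE genes tested, 13 had a log2(FC) below 0, with a median of -0.52 (-0.17 with the trend removed), but *Lce1m* was the one DEG, and these short paralogs may share reads. *Sprr4* was 75.9, 52.8 and 49.9 FPKM in the wild type and 146, 152, 135 and 195 FPKM in *Socs3* cKO (log2(FC) 1.41, SE 0.21, adjusted p = 0.0013). Its transcript has 231 bases, which limits its FPKM, and it drops out where transcripts under 300 bases are left out. *Krt80*, a keratin of differentiating cells, was 5.84, 42.9 and 5.24 FPKM in the wild type and 74.2, 97.4, 121 and 58.8 FPKM in *Socs3* cKO (log2(FC) 2.94, SE 0.63, adjusted p = 0.0069), with the highest wild type value in replicate 2, and it was not a DEG without any one of 6 of the 7 libraries, the exception being wild type replicate 2 (log2(FC) 2.41 to 3.91, adjusted p up to 0.039). Over the whole list 5 of 51 were up-regulated (9.8%, and 1 to 7 with 1 library left out, fewest without wild type replicate 3 or *Socs3* cKO replicate 2 or 3) and 2 down-regulated (3.92%), with the trend removed 2 and 2, shares near those of all genes.

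Lipids of the skin barrier are ceramides with very long fatty acids, made in the upper epidermis and loaded into lamellar bodies. Of 41 genes 10 (24.4%) were up-regulated and 0 down-regulated, with a median of 0.70, and 3 (7.32%) with the trend removed, with a median of 0.20. With 1 library left out 3 to 11 were up-regulated, fewest without wild type replicate 3. *Abca12*, the lipid transporter of lamellar bodies, was 2.58, 4.05 and 1.2 FPKM in the wild type and 15.3, 21.8, 26.7 and 13.2 FPKM in *Socs3* cKO (log2(FC) 2.93, SE 0.39, adjusted p = 0.00085). *Elovl4*, which makes the very long chains, was 219.5, 139 and 111 FPKM in the wild type and 495, 509, 382 and 342 FPKM in *Socs3* cKO (log2(FC) 1.50, SE 0.26, adjusted p = 0.0029), and *Sgpl1*, which degrades sphingosine phosphate, was 28.7, 27.1 and 16.1 FPKM in the wild type and 64.4, 72.9, 68.5 and 59.5 FPKM in *Socs3* cKO (log2(FC) 1.51, SE 0.22, adjusted p = 0.0012). Of the 3, *Abca12* stayed a DEG with the trend removed (log2(FC) 2.05), against 0.94 and 0.81 for the others, and *Elovl4* was also not a DEG without wild type replicate 3 (adjusted p = 0.016). Cholesterol synthesis and uptake genes gave 7 up-regulated of 35 and 0 with the trend removed, or without wild type replicate 3 or *Socs3* cKO replicate 1 or 2.

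Sebaceous gland genes were higher, 4 of 11 being up-regulated (3 with the trend removed, 2 without wild type replicate 3 or *Socs3* cKO replicate 1). *Scd3*, a desaturase of sebocytes, was 2.88, 5.09 and 1.89 FPKM in the wild type and 35.1, 26.8, 13.7 and 18.1 FPKM in *Socs3* cKO (log2(FC) 2.82, SE 0.38, adjusted p = 0.00096). *Far2*, which makes the fatty alcohols of wax esters and is also in the barrier lipid list, was 9.93, 18.2 and 6.81 FPKM in the wild type and 90.9, 94.2, 64.8 and 56.2 FPKM in *Socs3* cKO (log2(FC) 2.79, SE 0.32, adjusted p = 0.00042), and *Mc5r*, the melanocortin receptor of these glands, was 0.887, 1.99 and 1.03 FPKM in the wild type and 5.95, 3.73, 3.59 and 4.11 FPKM in *Socs3* cKO (log2(FC) 1.72, SE 0.31, adjusted p = 0.0034). Every *Socs3* cKO mouse lay above the wild type in the 3 genes. *Mc5r* was not a DEG without wild type replicate 1 or 3 or *Socs3* cKO replicate 1 (adjusted p up to 0.019). The summed marker level was 485 to 616 FPKM in wild type mice and 652 to 950.1 FPKM in *Socs3* cKO.

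Skeletal muscle genes were lower. The ear carries small striated muscles, and their 30 marker genes summed to 2220, 3202 and 3829 FPKM in wild type mice and 1610, 1149, 864 and 1137 FPKM in *Socs3* cKO, without overlap. Of 28 tested, 11 (39.3%) were down-regulated and 0 up-regulated, against 2.43% of all genes, with a median of -1.05. After removal of the trend the numbers were 11 and 0 and the median -1.11, and with 1 library left out 5 to 12 were down-regulated, the fewest without wild type replicate 3. *Cav3*, the muscle caveolin, was 4.9, 6.68 and 10.1 FPKM in the wild type and 1.91, 1.58, 1.27 and 1.77 FPKM in *Socs3* cKO (log2(FC) -2.04, SE 0.28, adjusted p = 0.001). *Tcap*, which caps titin, was 133, 188 and 274 FPKM in the wild type and 84.1, 61.5, 29 and 38.7 FPKM in *Socs3* cKO (log2(FC) -1.95, SE 0.37, adjusted p = 0.004), and *Tnnc2*, fast troponin C, was 357, 433 and 599 FPKM in the wild type and 159, 126, 97.7 and 125 FPKM in *Socs3* cKO (log2(FC) -1.85, SE 0.24, adjusted p = 0.00068). Myoglobin, *Mb*, chosen after its values were seen, was 318, 366 and 559 FPKM in the wild type and 182, 135, 88.8 and 118 FPKM in *Socs3* cKO (log2(FC) -1.67, SE 0.28, adjusted p = 0.0023). In all 4 genes the highest *Socs3* cKO mouse lay below the lowest wild type mouse. *Tcap* and *Mb* were not DEGs without wild type replicate 3 (adjusted p = 0.023 and 0.012), and *Tcap* not with the trend removed (adjusted p = 0.015).

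Globin transcripts of red blood cells were lower as well. *Hba-a1* was 1958, 2730 and 2885 FPKM in the wild type and 458, 255, 791 and 633 FPKM in *Socs3* cKO (log2(FC) -2.34, SE 0.38, adjusted p = 0.0019), and its near-identical copy *Hba-a2*, whose reads cannot be told apart from it with certainty, had a log2(FC) of -2.33. *Hbb-b1* was 846, 1556 and 1096 FPKM in the wild type and 329, 171, 545 and 441 FPKM in *Socs3* cKO (log2(FC) -1.73, SE 0.39, adjusted p = 0.0082). No *Socs3* cKO mouse reached the lowest wild type mouse, but the 3 calls did not hold without wild type replicate 3 (adjusted p = 0.013, 0.013 and 0.035), and *Hbb-b1* was not a DEG without wild type replicate 1 or 2 or *Socs3* cKO replicate 1, 2 or 4 either, or with the trend removed (adjusted p = 0.015).

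Cartilage genes split. *Clec3a*, a lectin of cartilage, was 0.784, 2.01 and 0 FPKM in the wild type and 32.6, 11.8, 41.2 and 55.4 FPKM in *Socs3* cKO (log2(FC) 5.75, SE 0.90, adjusted p = 0.0017). *Col10a1*, the collagen of hypertrophic chondrocytes, was 1.47, 1.5 and 0.944 FPKM in the wild type and 17.4, 6.07, 12.2 and 13 FPKM in *Socs3* cKO (log2(FC) 3.06, SE 0.34, adjusted p = 0.00038), and chondroadherin, *Chad*, was 35.5, 57.9 and 42.6 FPKM in the wild type and 254, 138, 169 and 165 FPKM in *Socs3* cKO (log2(FC) 1.99, SE 0.24, adjusted p = 0.00058). *Sox9*, the transcription factor of chondrocytes and hair follicle stem cells, chosen after its values were seen, was lower at 16.7, 24.9 and 24.2 FPKM in the wild type and 12.4, 7.65, 12.4 and 8.37 FPKM in *Socs3* cKO (log2(FC) -1.11, SE 0.24, adjusted p = 0.007), a call that did not hold without any one of 6 of the libraries, *Socs3* cKO replicate 3 being the exception (adjusted p up to 0.034). Of 20 tested, 4 were up-regulated and 1 down-regulated (3 and 1 with the trend removed), and the summed markers overlapped at 1291 to 1865 FPKM in wild type mice and 1177 to 2051 FPKM in *Socs3* cKO. Among fat genes, leptin, *Lep*, was 0.616, 0.603 and 0.684 FPKM in the wild type and 4.17, 5.63, 2.02 and 3.12 FPKM in *Socs3* cKO (log2(FC) 2.29, SE 0.34, adjusted p = 0.0014). With every wild type mouse below 1 FPKM, *Lep* passed the filter through the *Socs3* cKO mice alone. Of 15 endothelial markers 5 were up-regulated (1 with the trend removed, 2 without wild type replicate 1 or 3 or *Socs3* cKO replicate 1), and the one that held was *Kdr*, the main VEGF receptor, at 0.589, 1.19 and 0.514 FPKM in the wild type and 4.87, 3.71, 3.02 and 2.78 FPKM in *Socs3* cKO (log2(FC) 2.15, SE 0.33, adjusted p = 0.0016, and 1.36 with the trend removed).

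**Figure D4:**
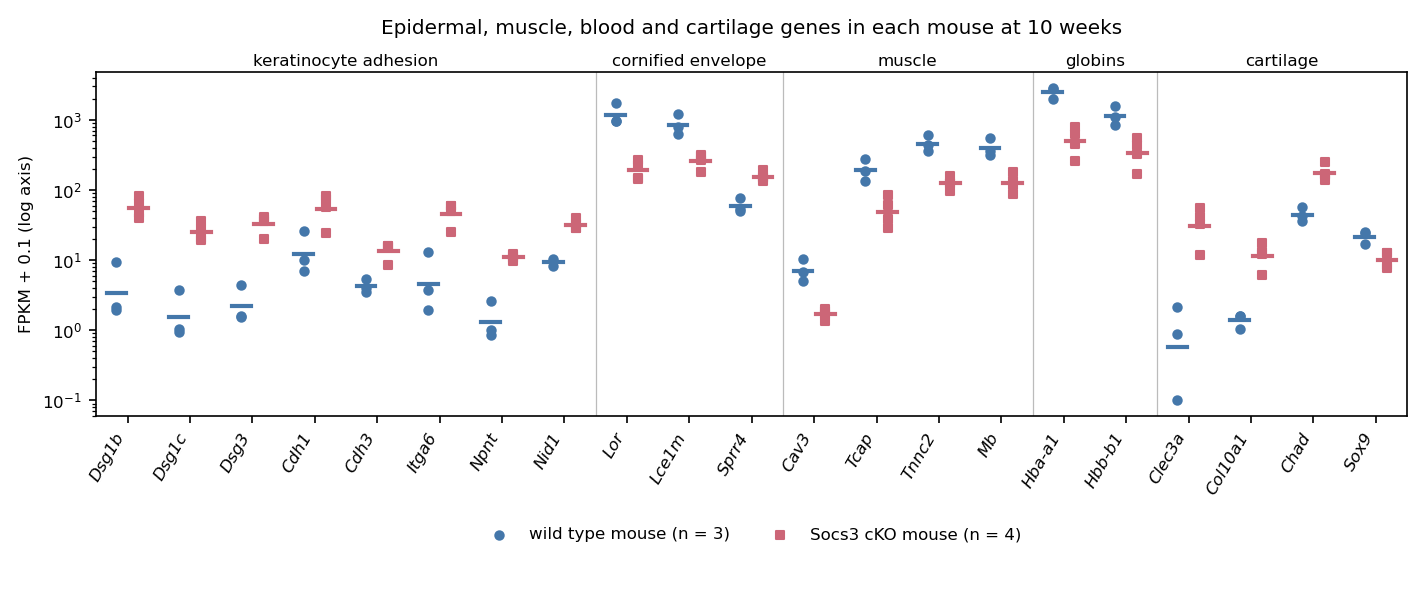
FPKM + 0.1 (y axis, log scale) of genes of keratinocyte adhesion, the cornified envelope, muscle, globin and cartilage (x axis) in the 3 wild type mice (blue circles) and the 4 *Socs3* cKO mice (red squares) at 10 weeks, with bars at the mean of the log values. Muscle and globin genes lie lower in every *Socs3* cKO mouse, *Tnnc2* for instance at 97.7 to 159 against 357 to 599 FPKM, and desmogleins higher, while *Cdh1* overlaps.

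Genes for the actin cytoskeleton and focal adhesions, through which keratinocytes hold their shape and crawl, gave 30 up-regulated of 81 (37%) and 0 down-regulated, and 12 up (14.8%) and 3 down with the trend removed. As deposited, 12 to 36 were up-regulated with 1 library left out, fewest without wild type replicate 1. The cytoplasmic γ-actin *Actg1* was 81.6, 132 and 54.4 FPKM in the wild type and 317, 320.2, 377 and 301 FPKM in *Socs3* cKO (log2(FC) 1.97, SE 0.27, adjusted p = 0.0011). The β-actin *Actb* was 174, 276 and 135 FPKM in the wild type and 474, 487, 492 and 440 FPKM in *Socs3* cKO (log2(FC) 1.34, SE 0.25, adjusted p = 0.0034). Tropomyosin *Tpm3* was 13.7, 31.6 and 7.1 FPKM in the wild type and 79.7, 79.1, 99 and 83 FPKM in *Socs3* cKO (log2(FC) 2.54, SE 0.40, adjusted p = 0.0018), and *Wasf2*, which starts actin branching at the leading edge, was 1.28, 7.01 and 1.33 FPKM in the wild type and 19.9, 20.9, 24 and 12.4 FPKM in *Socs3* cKO (log2(FC) 2.97, SE 0.52, adjusted p = 0.0029). All 4 also passed with the trend removed. *Actb* and *Wasf2* were not DEGs without wild type replicate 1 or 3 (adjusted p up to 0.017 and 0.018), nor *Actb* without *Socs3* cKO replicate 1 or 2. Both actins are often used as reference genes, and after quantile normalization their log2(FC) was 1.86 and 1.31.

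3 lists of nuclear and ubiquitin genes lay above the median of all genes as deposited and close to it with the trend removed. Chromatin regulators, with a median transcript of 6055 bases, gave 19 up-regulated of 84 (22.6%) at a median of 0.71, but 7 (8.33%) at a median of 0.00 with the trend removed, and 2 without wild type replicate 1 or 3. Nuclear transport genes went from 13 to 5 up-regulated of 55, and ubiquitin-specific proteases from 9 of 42 to 2. Without wild type replicate 1 they numbered 7 and 3. Single members held both ways. The H3K27 demethylase *Kdm6b*, which inflammatory signals induce, was 2.55, 4.62 and 2.67 FPKM in the wild type and 12.8, 12.7, 15 and 5.74 FPKM in *Socs3* cKO (log2(FC) 1.75, SE 0.35, adjusted p = 0.0048, and 1.25 with the trend removed), though not a DEG without wild type replicate 1 or 3 or *Socs3* cKO replicate 1, 2 or 3 (adjusted p up to 0.027). The nucleoporin *Nup98* was at log2(FC) 2.79 (2.00 with the trend removed), the importin *Ipo7* at 2.88 (2.26), the demethylase-family gene *Jmjd1c* at 1.99 (1.07) and the protease *Usp34* at 2.53 (1.55).

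Protein folding and secretion genes showed a few clear members. Of 74 genes 14 (18.9%) were up-regulated and 5 (6.85%) with the trend removed, and 7 without wild type replicate 3. Calreticulin, *Calr*, the chaperone of glycoproteins, was 29.6, 78.6 and 24.5 FPKM in the wild type and 210.5, 192, 200.5 and 227 FPKM in *Socs3* cKO (log2(FC) 2.42, SE 0.34, adjusted p = 0.0012). *Ppp1r15a*, whose product GADD34 reverses the stress block of translation, was 12.5, 12.3 and 11.8 FPKM in the wild type and 54.4, 54.3, 56.8 and 39.4 FPKM in *Socs3* cKO (log2(FC) 2.05, SE 0.17, adjusted p = 8.6e-05), and the coat protein *Copa* had a log2(FC) of 2.56. All 3 were DEGs with the trend removed. The constitutive heat shock protein *Hspa8* was 259, 289.9 and 166 FPKM in the wild type and 567, 625, 672 and 848 FPKM in *Socs3* cKO (log2(FC) 1.53, SE 0.25, adjusted p = 0.002) and not a DEG without wild type replicate 3 (adjusted p = 0.011). The metal-binding metallothionein *Mt2* was 744, 378 and 594 FPKM in the wild type and 1544, 1241, 1450 and 1638 FPKM in *Socs3* cKO (log2(FC) 1.41, SE 0.27, adjusted p = 0.0045) and not a DEG after median-of-ratios scaling or without wild type replicate 3 or *Socs3* cKO replicate 1, 2 or 3 (adjusted p up to 0.021 over the libraries left out).

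Energy metabolism showed single changes. Of the glycolysis list 6 of 27 genes were up-regulated and 2 down-regulated (3 and 1 with the trend removed), and 1 was up-regulated without wild type replicate 1 or 3. The glucose transporter *Slc2a1* was 5.36, 13.6 and 5.52 FPKM in the wild type and 25.7, 20.4, 38.6 and 23.2 FPKM in *Socs3* cKO (log2(FC) 1.81, SE 0.34, adjusted p = 0.0039), and *Pdk4*, the kinase that keeps pyruvate out of the mitochondria, was 1.32, 1.06 and 1.29 FPKM in the wild type and 5.91, 4, 5.45 and 5.25 FPKM in *Socs3* cKO (log2(FC) 1.98, SE 0.23, adjusted p = 0.00041). *Slc2a1* was not a DEG without wild type replicate 1 or 3 (adjusted p up to 0.023). *Slc25a25*, a mitochondrial ATP-magnesium carrier, was 2.83, 2.62 and 2.33 FPKM in the wild type and 16.6, 20, 21.5 and 16.1 FPKM in *Socs3* cKO (log2(FC) 2.79, SE 0.19, adjusted p = 2.1e-05). Of 79 genes of oxidative phosphorylation, 8 (10.1%) were down-regulated and 0 up-regulated, with a median of -0.59, and 3 (3.8%) with the trend removed, with a median of -0.38. The largest falls were those of *Cox8b*, *Cox6a2* and *Cox7a1* (log2(FC) -1.61, -1.59 and -1.41), the isoforms of complex IV found in striated muscle, whose markers were lower too, and the part of muscle in the list's change was not tested. With the trend removed *Cox6a2* remained a DEG (log2(FC) -1.30), while *Cox8b* (-1.10, adjusted p = 0.014) and *Cox7a1* (-0.96, adjusted p = 0.044) did not. Without wild type replicate 3 the list held 1 down-regulated gene, and without wild type replicate 2 19. *Ndufb7*, *Ndufa5* and *Atp5e*, subunits made in every tissue, had a log2(FC) of -1.32, -1.11 and -1.26, and -0.80, -0.99 and -0.82 with the trend removed, below the fold threshold. These 3, like *Cox8b* and *Cox7a1*, were not DEGs without wild type replicate 3 (adjusted p = 0.036, 0.023, 0.041, 0.015 and 0.013). *Cox8b* and the first 3 were not DEGs without wild type replicate 1 either, nor those 3 without *Socs3* cKO replicate 1, 2 or 3 (adjusted p up to 0.036, 0.023 and 0.041).

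Ribosomes and other assemblies of short proteins lay below the median of all genes. The cytosolic ribosome had a median log2(FC) of -0.44 over 78 genes (-0.26 with the trend removed), and 72 of them were below 0, but 1 was a DEG. This was the stalk protein *Rplp2*, at 2873, 1846 and 3258 FPKM in the wild type and 781, 891, 886 and 705 FPKM in *Socs3* cKO (log2(FC) -1.67, SE 0.27, adjusted p = 0.002), not a DEG without wild type replicate 3 (adjusted p = 0.013). *Rps28*, the ribosomal gene of highest FPKM, was 4432, 3277 and 4388 FPKM in the wild type and 2772, 2492, 2187 and 4441 FPKM in *Socs3* cKO and was not a DEG (adjusted p = 0.28). The mitochondrial ribosome gave 2 down-regulated of 75 (6 with the trend removed), with *Mrps26* at 77.7, 60.6 and 80.2 FPKM in the wild type and 28.9, 36.5, 34.4 and 29.5 FPKM in *Socs3* cKO (log2(FC) -1.17, SE 0.17, adjusted p = 0.0013). Of the Sm and LSm proteins of RNA splicing and decay 3 of 24 were down-regulated, as deposited and with the trend removed, led by *Lsm2* at 34.5, 28.6 and 32 FPKM in the wild type and 12.2, 14, 11.4 and 10.8 FPKM in *Socs3* cKO (log2(FC) -1.39, SE 0.16, adjusted p = 0.00047). The initiation factor eIF3 gave 1 up-regulated and 1 down-regulated of 13 subunits (0 and 1 with the trend removed), with a median of -0.04. The down-regulated subunit, *Eif3f*, was 297, 245 and 311 FPKM in the wild type and 86.1, 102, 113 and 95.2 FPKM in *Socs3* cKO (log2(FC) -1.52, SE 0.18, adjusted p = 0.00043). *Mrps26*, *Lsm2* and *Eif3f* remained DEGs with the trend removed and with each library left out (log2(FC) with the trend removed -1.85, -1.19 and -1.92).

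The proliferation list held a single DEG as deposited. Of 39 cycle genes 0 were up-regulated and 1 was down-regulated (2 with the trend removed), with a median of 0.12 (-0.29 with the trend removed). The DEG was thymidylate synthase, *Tyms*, at 32.9, 34.4 and 50.8 FPKM in the wild type and 8.62, 9.55, 9.54 and 10.2 FPKM in *Socs3* cKO (log2(FC) -2.01, SE 0.19, adjusted p = 0.00017), and the groups were far apart in it.

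The other lists held few DEGs, or few once the trend was removed. Of autophagy genes 7 of 31 were up-regulated (2 with the trend removed), of heat shock genes 6 of 29 (4), of the oxidative stress and metal list 3 of 34 (2), and of mitochondrial carriers 3 of 35 (3). Without wild type replicate 3 the first 2 lists held 1 and 3 up-regulated genes. The proteasome, which degrades tagged proteins, had 1 up-regulated of 31 (0 with the trend removed) and a median of 0.06. The subunits of RNA polymerase II had no DEG among 12, with a median of -0.46 (-0.31 with the trend removed). Translation initiation gave 4 up-regulated and 1 down-regulated of 36 (1 and 1 with the trend removed). Among cell type markers, fibroblasts gave 2 up-regulated of 14 (0 with the trend removed), adipocytes 4 of 16 (3), Schwann cells 2 of 11 (1), T cells 2 of 11 (0), and melanocytes 0 of 7. Of the 6 hair genes tested 1 was down-regulated.

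Apart from *Lor*, the 10 largest falls among genes with a mean of at least 5 FPKM in the higher group were named by no list. *Dub1*, a deubiquitinating enzyme of blood cells, was 3.1, 5.09 and 8.4 FPKM in the wild type and 0.357, 0.178, 0.26 and 0.118 FPKM in *Socs3* cKO (log2(FC) -4.04, SE 0.40, adjusted p = 0.00021), and *Grk1*, the rhodopsin kinase of the retina, was 8.33, 9.41 and 15.6 FPKM in the wild type and 0.934, 1.06, 0.866 and 0.551 FPKM in *Socs3* cKO (log2(FC) -3.54, SE 0.30, adjusted p = 8.6e-05). *Zfp488*, a zinc finger protein of oligodendrocytes, was 70.8, 78.4 and 121 FPKM in the wild type and 8.64, 9.91, 8.8 and 5 FPKM in *Socs3* cKO (log2(FC) -3.46, SE 0.27, adjusted p = 5.9e-05), and *Lars2*, the mitochondrial leucyl-tRNA synthetase, was 1190, 904 and 256 FPKM in the wild type and 56.2, 60.2, 64.5 and 75.7 FPKM in *Socs3* cKO (log2(FC) -3.35, SE 0.44, adjusted p = 0.00085), where wild type replicate 3 was well below the other two. *Iqcg*, *Veph1*, *Gimap1*, *Zfp781* and *Npff* fell by between 2.49 and 3.16 on the log2 scale. Every *Socs3* cKO mouse lay below every wild type mouse in all 9 genes, as in 11.1% of all genes tested. The calls held in every alternative in which they could be tested, which for *Dub1* and *Veph1* left out those without a wild type mouse. Genes picked as the largest falls tend to lie apart by that choice, so neither is further support. *Dub1* and *Veph1* reached 1 FPKM in wild type mice alone. The part in these falls of the low-level transcripts of wild type libraries, such as those of olfactory receptors, was not tested.

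At 2 weeks the same genotypes had differed in another way, over other libraries. Tested as a genotype by age interaction on all 15 mice, 2583 of 13937 genes (18.5%) had a higher and 983 (7.05%) a lower log2(FC) at 10 weeks than at 2 weeks. Of the EGF receptor list 25 of 38 genes were higher and 0 lower, the medians being -0.89 at 2 weeks and 1.33 at 10 weeks. For *Hbegf* the log2(FC) was -0.21 at 2 weeks and 3.74 at 10 weeks (interaction adjusted p = 8.9e-05), and for *Errfi1* 0.28 and 3.41 (adjusted p = 6.3e-05). In the STAT pathway list 17 of 54 were higher and 0 lower, and in the chromatin list 42 of 84 and 0. The list counts of this interaction were not repeated with the length trend removed. The median transcript was 6055 bases in the chromatin list and 860 in the cytosolic ribosome list, against 2882 over all genes.

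Blood, muscle and ribosome genes went the opposite way. The median of muscle genes was 1.64 at 2 weeks and -1.05 at 10 weeks, with 19 of 29 lower in the interaction. *Tcap* had a log2(FC) of 2.98 at 2 weeks (adjusted p = 0.00013) and -1.95 at 10 weeks, and *Hba-a1* of 3.25 (adjusted p = 0.0003) and -2.34. Of the cytosolic ribosome 67 of 78 genes were lower in the interaction, of oxidative phosphorylation 53 of 79, and of the LCE proteins 13 of 17. Acute phase genes had a median of 2.23 at 2 weeks against 1.13 at 10 weeks, so both ages were higher in *Socs3* cKO, and *Serpina3n* was up-regulated by 3.17 and 1.98. Barrier genes *Abca12* and *Dsg1b* were DEGs at both ages, at 1.83 and 2.14 at 2 weeks and 2.93 and 4.05 at 10 weeks. The length trend differs between the ages too, and with it removed 1339 genes were higher and 1866 lower in the interaction.

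**Figure D5:**
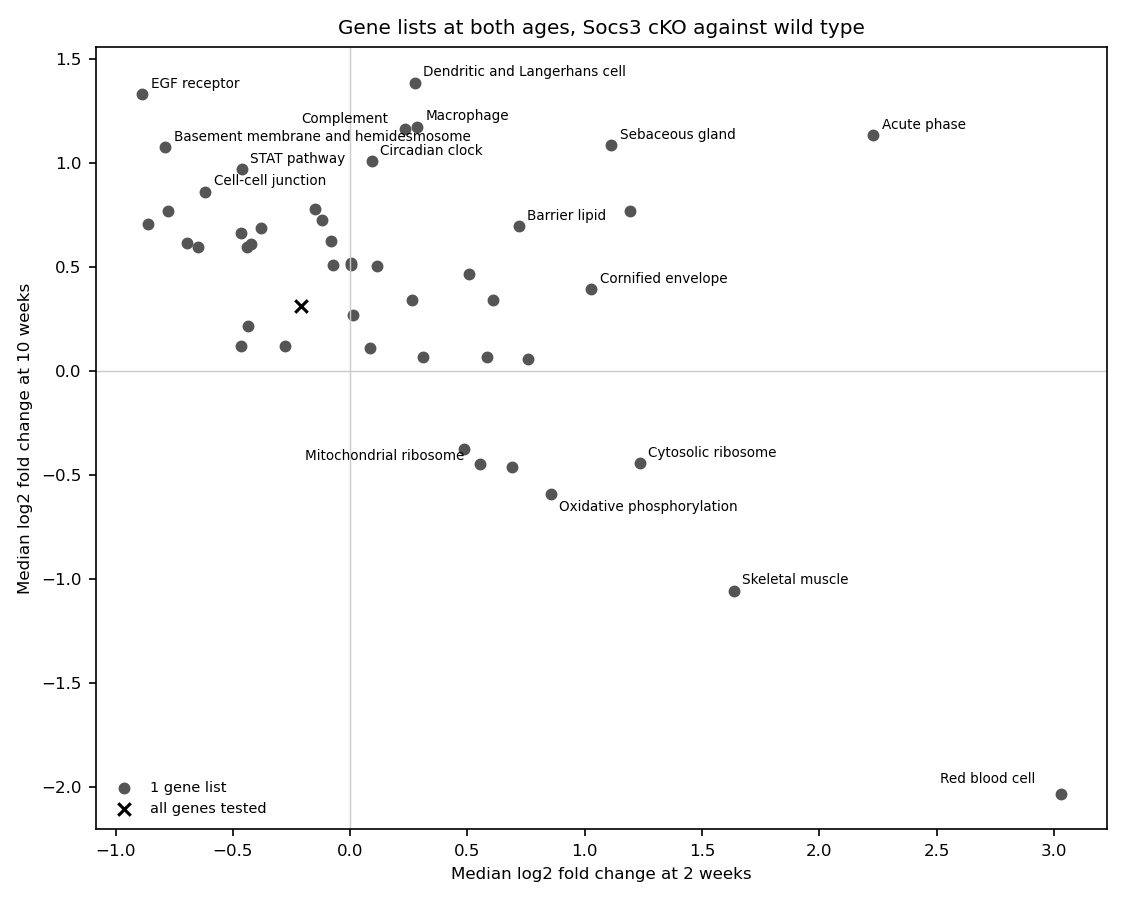
Median log2(FC) of each gene list at 2 weeks (x axis) and at 10 weeks (y axis), 1 point a list, with all genes tested marked by a cross, and the hair list left out because its 2-week median lies far outside the axis. The EGF receptor list lies at -0.89 and 1.33, skeletal muscle at 1.64 and -1.05, and the acute phase list is above 0 at both ages.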

How the data were processed

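The authors deposited 1 table a mouse with FPKM per gene, from single 50-base reads mapped with TopHat2 (2.1.0) and assembled with Cufflinks (version not given in the sources used here) on mm9. FPKM holds no read counts, so depth is unknown and no counting interval is given.

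The deposited FPKM were tested as log2(FPKM + 0.1) with limma (3.58.1, R 4.3.3) with a mean-variance trend, 2-sided, with Benjamini-Hochberg adjustment over all genes that reached 1 FPKM in 3 or more of the 7 mice of 10 weeks. A gene below 1 FPKM in every wild type mouse could pass this filter only by being higher in *Socs3* cKO. Examples are *Epgn*, *Dusp8*, *Nr4a3*, *Ptgs2*, *Has1*, *Ccr7*, *Flt3* and *Lep*. The interaction with age used all 15 mice. The labels do not give litters, so p-values measure the spread between these libraries. In data simulated for the 10-week comparison 184 of 200 changed genes were recovered, with 1 false call among 13105 genes. Each gene was drawn there independently, with large changes and without a length trend or effects shared by a library. The simulation therefore checks the calculation and does not give the rate of false calls in these data. For the trend removed, each library's deviation from the mean was fitted on transcript length and GC content by splines with 4 degrees of freedom (12643 genes with both).

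The 47 gene lists and the genes named were chosen with earlier results of these data known. Named were up to 3 DEGs a role of each list by |log2(FC)|, and the 10 largest rises and falls with a mean of at least 5 FPKM in the higher group, without short transcripts, predicted genes, AP-1 subunits, *Il6*, *Cxcl1* and *Cxcl2*. Further wild type mice of the study were not analysed here, and 1 gene of the rule is not reported here.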

Additional observations from a re-analysis of the deposited data

Results flagged for a closer look

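In the 4 *Socs3* cKO mice of 10 weeks, 1 mouse stood apart from the other 3 in 9 of the 130 genes named. For independent genes chance gives about 5% of groups. These genes share the same libraries and were mostly picked as DEGs, so the count cannot be judged against that rate. Replicate 4 was also the lowest *Socs3* cKO mouse in 902 of the 1638 up-regulated DEGs. Of the 9, 4, *Cish*, *Myc*, *S100a8* and *S100a9*, were chosen after their values were seen. Replicate 4 was the lowest for *Cdh3* (8.54 FPKM), *Tjp1* (9.59), *Ppp1r15a* (39.4), *Nr4a2* (11.4) and *Myc* (31.7), and the highest for *Ndufb7* (145 FPKM). Replicate 3 was the highest for *Cish* (31.6 FPKM), *S100a8* (838) and *S100a9* (425).

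By the interaction in limma the genotype difference changed with age in 98 of the 130 genes named at an adjusted p below 0.01. Most of these genes were named for a large difference at 10 weeks, so their count is no result and single values are a description. The values below are the log2(FC) at 10 weeks minus that at 2 weeks. Since the length trend of the libraries differed between the ages too, its part in them was not tested. In 73 genes the value was above 0 and in 25 below. Among genes of cytokine signalling it was 4.60 for *Socs3*, 4.19 for *Sh2b3*, 3.44 for *Cish*, 4.16 for *Il6ra*, 2.25 for *Il4ra*, 1.05 for *Jak2*, 1.97 for *Stat3*, 2.46 for *Cebpd*, 3.35 for *Pim1*, 4.37 for *Bcl3* and 2.46 for *Myc*. Among genes of the EGF receptor system it was 4.38 for *Epgn*, 3.95 for *Hbegf*, 4.98 for *Erbb3*, 1.62 for *Egfr*, 4.30 for *Dusp5*, 5.89 for *Dusp8* and 3.13 for *Errfi1*. For the inducible genes and mediators the values were 6.92 for *Nr4a1*, 6.25 for *Nr4a2*, 7.84 for *Nr4a3*, 5.26 for *Ptgs2*, 6.25 for *Has1*, 5.49 for *Tnfaip3*, 4.40 for *Ccl20*, 5.42 for *Cxcl10* and 4.89 for *Il1b*. That of *Nr4a3* depends on the pseudocount, since the gene is listed at 0 in all 3 wild type mice of 10 weeks and was not tested at 2 weeks alone. For regulators of messages and the clock the values were 3.72 for *Zfp36*, 3.25 for *Btg2*, 5.75 for *Nfil3*, 2.40 for *Bhlhe40* and 3.23 for *Per1*.

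Immune and complement genes were mostly higher at the later age, with 2.74 for *C1rb*, 1.84 for *C1s*, 1.65 for *Cfb*, 2.46 for *Itgam*, 1.21 for *Steap4*, 2.95 for *Cd83*, 3.37 for *Ccr7*, 1.99 for *Flt3*, 1.59 for *Cd14*, 3.17 for *Mertk*, 1.20 for *Hdc* and 3.38 for *Irf1*, whereas *Serpina3n* had a smaller difference (-1.20). Adhesion and basement membrane genes had 2.90 for *Itga6*, 1.94 for *Lama2*, 4.78 for *Npnt*, 2.36 for *Nid1*, 3.43 for *Dsg3*, 3.43 for *Cdh1*, 3.75 for *Cdh3*, 1.38 for *Tjp1* and 2.56 for *Kdr*. Genes of cornification and lipids had -2.79 for *Lce1m*, 2.37 for *Sprr4*, 4.35 for *Krt80*, 1.92 for *Far2*, 1.34 for *Sgpl1* and 2.57 for *Scd3*. Muscle, globin and respiratory chain genes were lower, with -3.03 for *Cav3*, -4.93 for *Tcap*, -3.53 for *Tnnc2*, -5.03 for *Mb*, -5.59 for *Hba-a1*, -5.59 for *Hba-a2*, -4.76 for *Hbb-b1*, -4.57 for *Cox8b*, -4.02 for *Cox6a2*, -3.79 for *Cox7a1*, -1.98 for *Ndufb7*, -2.50 for *Ndufa5* and -2.11 for *Atp5e*. Ribosome and cycle genes were lower as well, with -1.92 for *Rps28* and -2.52 for *Tyms*.

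Genes of the cytoskeleton, nucleus and metabolism had 2.91 for *Tpm3*, 2.71 for *Actg1*, 2.04 for *Actb*, 4.76 for *Wasf2*, 1.06 for *Jmjd1c*, 4.77 for *Kdm6b*, 3.01 for *Nup98*, 2.34 for *Ipo7*, 1.50 for *Usp34*, 3.31 for *Slc25a25*, 1.77 for *Pdk4*, 1.97 for *Slc2a1*, 3.02 for *Calr*, 2.27 for *Ppp1r15a* and 2.70 for *Copa*. The largest falls at 10 weeks had -3.95 for *Dub1*, -3.27 for *Grk1*, -3.18 for *Zfp488*, -2.63 for *Lars2*, -2.54 for *Iqcg*, -2.67 for *Veph1*, -2.27 for *Gimap1* and -2.82 for *Zfp781*.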

How the results depend on the processing

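Of the 127 DEGs named, none changed sign under any alternative, while of the 3 named genes that were not DEGs *S100a8* and *S100a9* did so without *Socs3* cKO replicate 3, in log2(FC) ranges over left-out libraries of -0.15 to 2.12 and -0.60 to 1.51, and *Rps28* with the trend removed (0.012). All 127 remained DEGs with a pseudocount of 1 or 0.01 or a stricter filter, while 7 lost the call after median-of-ratios scaling, 9 after quantile normalization, 9 without an expression filter and 17 with the trend removed. The number of DEGs, 1957, was 1279 with the trend removed. Up-regulated DEGs numbered 1073 after median-of-ratios scaling, 923 after quantile normalization and 756 with the trend removed (1638 as reported), and down-regulated DEGs 632, 776 and 523, and 718 without a filter (319 as reported). These scalings moved the median log2(FC) of all genes from 0.31 to 0.06, -0.02 and -0.09. With 1 library left out DEGs ranged from 745 to 2665, up-regulated from 648 to 2323 and down-regulated from 97 to 353, the fewest of each without wild type replicate 3. In the interaction, genes higher at 10 weeks numbered 1339 with the trend removed (2583 as reported), and genes lower 1649 without a filter, 1664 after median-of-ratios scaling, 2269 after quantile normalization and 1866 with the trend removed (983 as reported). Leaving out 1 library gave 1994 to 3988 in all, 1416 to 2999 higher and 519 to 1147 lower. The cause of these shifts was not tested.

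Same-numbered mice of the 2 genotypes correlated at -0.209, 0.068 and -0.192 in their deviations, and none correlated best with its own number, so the numbers do not pair them. A fit with the replicate number as a block gave 1899 DEGs, 1607 up-regulated and 292 down-regulated, and in the interaction 2378 genes, 1706 of them higher at 10 weeks. FPKM limits what can be read from genes of short transcripts and of low level, and no depth is known.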

Other observations

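Gene families were also counted by name, after their values were seen, some with members that stand in a list above, beside 12.5% up-regulated over all genes and 5.98% with the trend removed. Toll-like receptors, which sense microbial products, gave 6 up-regulated of 8 tested, with a median log2(FC) of 1.59, but 1 with the trend removed. *Tlr8* and *Tlr13*, among the 6, were below 1 FPKM in every wild type mouse and were tested through the *Socs3* cKO mice alone. *Tlr2*, the receptor for bacterial lipopeptides, was 2.31, 3.2 and 3.43 FPKM in the wild type and 9.03, 8.66, 12.1 and 14.5 FPKM in *Socs3* cKO, without overlap. Fibroblast growth factors gave 5 up-regulated of 9 tested (22 in the files) and 3 with the trend removed. *Fgf11*, *Fgf14* and *Fgf23*, among the 5, were below 1 FPKM in every wild type mouse and passed the filter through the *Socs3* cKO mice alone. *Fgf2* was 0.247, 1.15 and 0.375 FPKM in the wild type and 4.82, 3.98, 4.06 and 2.98 FPKM in *Socs3* cKO, and *Fgf7*, the keratinocyte growth factor made by fibroblasts, was 5.95, 7.85 and 3.53 FPKM and 12.5, 13.1, 14.4 and 17.7 FPKM. Every *Socs3* cKO mouse lay above the wild type in both.

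Krüppel-like factors, zinc finger factors of epithelial differentiation, gave 6 up-regulated of 14 and 5 with the trend removed, with medians of 1.09 and 0.72. Cadherins of the *Cdh* family gave 6 up-regulated of 8 and 3 with the trend removed. *Cdh13*, a cadherin without a cytoplasmic tail, was 1.89, 5.46 and 2.8 FPKM in the wild type and 26.4, 26.4, 19.3 and 24.7 FPKM in *Socs3* cKO, and *Cdh19*, a cadherin of Schwann cells, was 0.405, 0.943 and 0.517 FPKM and 6.11, 4.45, 2.98 and 6.3 FPKM. Of the 11 *Skint* genes of the epidermal immunoglobulin family 4 were up-regulated and 2 with the trend removed, and these close paralogs may share reads. *Klf7*, *Cdh19* and *Skint7*, each counted as up-regulated in its family, were below 1 FPKM in every wild type mouse. They were tested through the *Socs3* cKO mice alone.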
